A study of Mus musculus with 23 samples.

Results

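Huntingtin, the protein encoded by Htt, and 7 genes whose products bind it or act beside it, Hap1, Hip1, Hip1r, Htra2, Sh3gl3, Pacsin1 and F8a, were examined in striatal cell lines. Members were all probes that the array annotation assigns to these symbols: 13 of the 24611 probes, for 8 of 15161 annotated genes. Of these 13 probes, 11 passed the filter on dim probes, which asked for a signal above the median of the array on at least 2 of the 23 arrays, and 2 probes of Hap1 did not.

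Messenger RNA had been measured on Illumina mouse bead arrays in the lines Q7, labelled WT, and Q111, labelled as a mutant from a transgenic mouse model of Huntington disease. Each line was left untreated or was exposed for 12 h to ZDON or Boc-DON, both at 50 µM, or to 250 µM cystamine, agents used in the field against transglutaminase, which bonds glutamine side chains of proteins to amines. There were 8 groups of 3 arrays, apart from the group of Q7 cells given Boc-DON, with 2, since replicate 3 of that group failed quality control by the submitters and was not used here. Replicates 1, 2 and 3 lay on BeadChips 1, 2 and 3. One line stood for each genotype, so genotype and other properties of a line cannot be told apart, and the labels do not give the number of mutant alleles. The untreated groups carry no vehicle, dose or time in the labels, so vehicle, duration and compound cannot be told apart.

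Huntingtin is a large scaffold protein with a glutamine tract near its amino terminus, and lengthening of that tract causes Huntington disease. Q7 and Q111 are names that the field uses for the length of the tract. The protein joins vesicles to microtubule motors through Hap1 and meets the clathrin coat through Hip1, a relative of Hip1r. It also binds SH3-domain proteins of endocytosis such as Sh3gl3 and Pacsin1. F8a encodes a huntingtin-associated protein that forms a stable complex with it, and Htra2 encodes a serine protease of mitochondria.

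The sequences before annotated transcription starts of Htt and Hap1 are shown because these are the members with the clearest differences below. The windows shown hold different elements. RefSeq's table for GRCm38.p6 held promoters of 7 of the 8 genes and none for Htra2. The 250 bases that precede the start are printed 5′ to 3′ on the gene's strand, chr5:34761490-34761739 on the plus strand for Htt and chr11:100356142-100356391 on the minus strand for Hap1. Capitals mark the letters of a GC box (GGGCGG) or of a cyclic AMP response element (TGACGTCA).
Htt: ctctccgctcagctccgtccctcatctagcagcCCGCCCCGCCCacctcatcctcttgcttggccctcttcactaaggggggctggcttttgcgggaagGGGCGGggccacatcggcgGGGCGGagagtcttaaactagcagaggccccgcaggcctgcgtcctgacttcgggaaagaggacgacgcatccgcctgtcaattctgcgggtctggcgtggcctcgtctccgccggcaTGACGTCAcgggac
Hap1: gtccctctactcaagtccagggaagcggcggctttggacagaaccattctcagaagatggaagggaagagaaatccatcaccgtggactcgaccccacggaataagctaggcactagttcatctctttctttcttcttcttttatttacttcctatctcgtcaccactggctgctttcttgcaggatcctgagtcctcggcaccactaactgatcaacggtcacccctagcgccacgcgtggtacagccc
Both strands were searched for these motifs and for TATAAA and CCAAT, from 250 bases before the start to 50 after it. The window of Htt held 4 GC boxes, of which the 2 farthest from the start overlap, and 1 cyclic AMP response element beginning 14 bases before the start, with no TATAAA or CCAAT. None of the 4 motifs was found in the printed bases of Hap1, and a TATAAA began 25 bases after the annotated start that ends the printed window, or 12 bases after the other of its 2 annotated starts in the table. Of 32851 promoters in the table, 35.7% held the GC box, 1.79% the cyclic AMP response element, 13.6% TATAAA and 37.4% CCAAT. A match is a description of the letters and does not show that a factor binds there. The gene spans given below begin at 34761721 for Htt and, on the minus strand, at 100356982 for Hap1. The printed Hap1 bases thus lie wholly inside its gene span, and bases before its outermost end were not searched. The last printed bases of Htt, with the cyclic AMP response element, also lie inside its span.

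Levels are log2 intensities after normexp background correction with an offset of 50 and quantile normalization, and the percentile of a probe is its rank among all probes of an array. Median intensity per array lay between 107.4 and 165 before normalization, and the median correlation of an array with the others lay between 0.9843 and 0.9909. A probe named for 18S ribosomal RNA read 4531.3 on the array of Q7 with ZDON, replicate 3, and between 14244.6 and 27122.2 on the others. Markers fixed by list gave a mixed picture of the striatal label: Foxp1, Pde10a and Meis2, 3 of 11 markers of striatal projection neurons on the array, lay above the median on every array, and Bcl11b, Rgs9, Gad1 and Gad2 lay above it on none. Of 7 progenitor markers, Nes, Vim, Sox2 and Dlx1 lay above the median on every array and Gsx2 on none. Of 9 general neuronal markers, Map2, Tubb3, Syp and Syn1 lay above it on every array and Syt1, Nefl and Nefm on none, and 0 of 5 microglial genes lay above it on any. The labels do not say that replicates came from separate cultures. Hence p-values here measure the spread between these arrays alone, which may be technical, and the few arrays limit precision.

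Htt was measured by 1 probe (scl015194.70_20-S; gene at chr5:34761721-34912534 in GRCm38.p6) that lay between percentiles 71.1 and 76.5 on all 23 arrays. Hap1, a neuronal adaptor for kinesin and dynein, had 1 probe above the median on all arrays (scl39565.12_79-S; gene at chr11:100347327-100356982), at percentiles 72.8 to 81.3. Its other probes, scl0001378.1_3-S and scl0001305.1_98-S, lay above the median on 0 arrays, although the first was designed against the same transcript record as the bright one.

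Among the endocytic partners, Hip1, an adaptor for the clathrin coat (scl00215114.2_315-S; chr5:135406496-135545323), lay at percentiles 58.9 to 68.8. Hip1r, its relative that links clathrin coats to actin (scl27228.32_300-S; chr5:123973602-124003215), lay at percentiles 90 to 91.5. Sh3gl3, or endophilin A3, which bends membranes and binds dynamin (scl32452.10.1_47-S; chr7:82173808-82307420), lay at percentiles 53.7 to 69.2. Pacsin1, or syndapin I, a neuronal partner of dynamin (chr17:27655591-27711118), was dim: its probes scl023969.4_26-S, scl0023969.1_255-S and scl50934.9.2_2-S lay above the median on 20, 9 and 2 arrays. F8a (scl0014070.2_181-S; chrX:73228306-73230795) lay at percentiles 82.3 to 86.2. Htra2 (chr6:83051266-83054571) had a brighter probe, scl28808.5.1_108-S, at percentiles 87.8 to 92.7 and a dimmer one, scl0001172.1_55-S, at percentiles 83 to 89.6. These ranks describe detection on the array and do not order the genes by abundance, since probes bind with different strength.

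**Figure D1:**
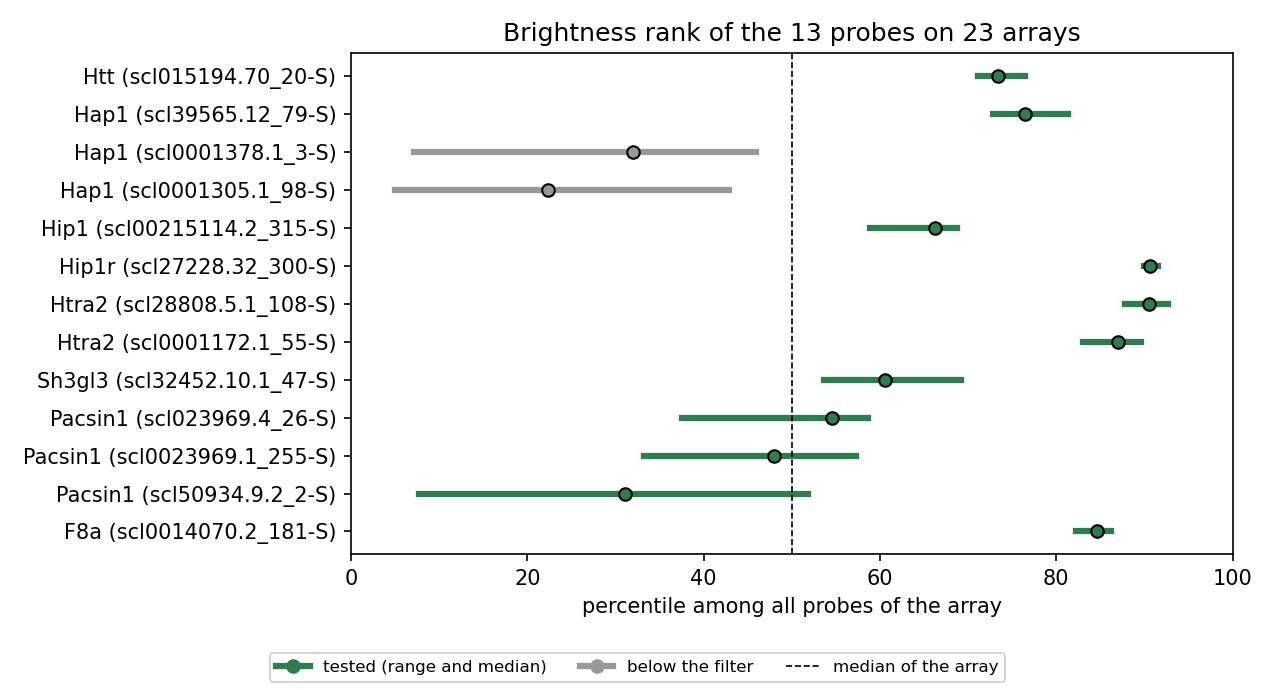
Rank of each of the 13 probes among all probes of the same array (x axis, percentile), as the range (bar) and median (point) over 23 arrays, green for the 11 tested probes and grey for the 2 that were not. The bright probes of Htt, Hip1r, Htra2 and F8a keep narrow ranges, and the 3 Pacsin1 probes reach below the array median at the dashed line.

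The comparison of the lines asked how the messages of huntingtin and its partners differ between Q111 and Q7. Averaged over the untreated, ZDON, Boc-DON and cystamine arms, 3 of the 11 tested probes passed an adjusted p of 0.05 and all 3 were lower in Q111: Htt, the bright probe of Hap1 and the dimmer probe of Htra2. Over all 15049 tested probes, 9.48% passed the same test, 5.32% higher and 4.16% lower in Q111. Adjusted p-values are those of limma with Benjamini-Hochberg adjustment over all tested probes.

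Untreated Q7 cells had log2 levels of Htt of 8.96, 9.03 and 8.87 on replicates 1, 2 and 3, and untreated Q111 cells had 8.76, 8.87 and 8.70. With ZDON the levels were 9.18, 9.27 and 9.12 in Q7 and 8.92, 9.18 and 8.79 in Q111. With Boc-DON they were 9.11 and 9.36 in Q7 and 8.94, 9.03 and 8.73 in Q111. Q111 values were the lower ones within each arm when arrays of the same chip were paired, although the ranges of the lines touched or overlapped in the untreated and ZDON arms and were apart with Boc-DON. With cystamine the levels were 8.83, 9.00 and 8.77 in Q7 and 8.62, 8.87 and 8.63 in Q111, again overlapping.

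Averaged over the 4 arms, Htt was lower in Q111 by a log2 difference of −0.22 (SE 0.06, 95% interval −0.35 to −0.10), or −14.4% on the normalized intensity scale (adjusted p = 0.0198). With the replicate number as a block the adjusted p was 0.0017, and chips 1, 2 and 3 taken singly gave −0.21, −0.18 and −0.22. Htt was lower in Q111 in 11 of 11 pairs of arrays that shared chip and arm, with differences from −0.33 to −0.09, and 1.62% of all tested probes were lower in every such pair. Median scaling in place of quantile normalization ended the call (−0.115, adjusted p = 0.328). That scaling moved the median line difference of the 1824 probes within 0.5 log2 units of the level of Htt from −0.0135 to 0.0892. Relative to those probes Htt differed by −0.21 under quantile normalization and by −0.20 under median scaling. This comparison was added after the data were seen. Quantile normalization sets arrays alike at each level, so near-equal values were bound to arise, also for uncalled members (F8a, −0.01 under both). The comparison therefore does not bear on the lost call. The call also ended without replicate 2 of Q7 with Boc-DON (adjusted p = 0.0824), the highest of these adjusted p-values over the 23 arrays left out in turn. Where on the transcript the probe lies, and whether it reads normal and expanded alleles alike, was not analysed here.

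Hap1 showed the larger difference between the lines. Its bright probe read 9.55, 9.46 and 9.26 in untreated Q7 and 8.87, 8.84 and 9.24 in untreated Q111. On chips 1 and 2 the lines were well apart, and on chip 3 they met. With ZDON the levels were 9.73, 9.25 and 9.53 in Q7 and 9.36, 9.15 and 9.58 in Q111, which overlap. With cystamine they were 9.30, 9.54 and 9.19 in Q7 and 8.98, 8.85 and 9.02 in Q111, with every Q7 array above every Q111 array.

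Over the 4 arms Hap1 was lower in Q111 by a log2 difference of −0.36 (SE 0.07, 95% interval −0.51 to −0.21), or −22.2%, with an adjusted p of 0.00165 and 0.000951 with the block. Chips 1, 2 and 3 taken singly gave −0.44, −0.49 and −0.05, and the difference was negative in 10 of 11 same-chip pairs. Leaving out each array in turn kept the adjusted p between 0.000555 and 0.00749. Under median scaling the difference was −0.259 with an adjusted p of 0.0587. Relative to the 1735 probes of like level it was −0.35 under both scalings, which has the same limit as for Htt. The dim probes, in a fit without the filter, gave 0.04 (95% interval −0.10 to 0.17) and −0.10 (−0.24 to 0.04), so the difference in Hap1 rests on a single probe.

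Htra2 cleaves damaged proteins in the intermembrane space of mitochondria and, once released, antagonizes inhibitors of apoptosis. Its brighter probe read 11.60, 11.91 and 11.66 in untreated Q7 and 11.60, 11.44 and 11.38 in untreated Q111. The dimmer probe read 11.22, 11.18 and 10.82 in untreated Q7 and 11.02, 10.82 and 10.88 in untreated Q111. Q111 lay lower on average by both probes, with overlap. The dimmer probe gave −0.22 over the 4 arms (SE 0.07, 95% interval −0.36 to −0.08, adjusted p = 0.0478, 0.0243 with the block), and the brighter one −0.17 (SE 0.07, 95% interval −0.31 to −0.04, adjusted p = 0.115, 0.0981 with the block). Differences were negative in 9 and 10 of 11 same-chip pairs. The call on the dimmer probe was close to the threshold: it held in 7 of the 23 fits that left out 1 array, ended with no filter on dim probes (adjusted p = 0.0741) and ended under median scaling (−0.106, adjusted p = 0.498).

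The other 5 genes gave no call in this comparison, and their intervals bound what these arrays could miss. Hip1r differed by −0.03 (95% interval −0.13 to 0.08), and all its 23 values lay within 0.28 log2 units. F8a differed by −0.03 (95% interval −0.19 to 0.13), from −0.18 and −0.23 on chips 1 and 2 and 0.34 on chip 3. On chips 1 and 2 alone, a setting chosen after the data were seen, F8a was lower in Q111 by −0.20 (adjusted p = 0.0239). That setting leaves out chip 3, whose value had the opposite sign. It called 2864 probes, beside 1426 in the main fit. Hip1 differed by 0.13 (95% interval −0.05 to 0.31) and was higher in Q111 in 8 of 11 same-chip pairs. Replicate 3 of Q111 with cystamine read 7.30 for Hip1, below the 7.68 of the next lowest array, and without it Hip1 was called higher in Q111 (0.205, adjusted p = 0.0267). Sh3gl3 differed by 0.10 (95% interval −0.16 to 0.36) and was higher in Q111 in 10 of 11 pairs. The exception was chip 1 with ZDON, where Q7 read 8.38, the highest of its 23 values. The 3 Pacsin1 probes differed by −0.01, −0.10 and 0.06.

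**Figure D2:**
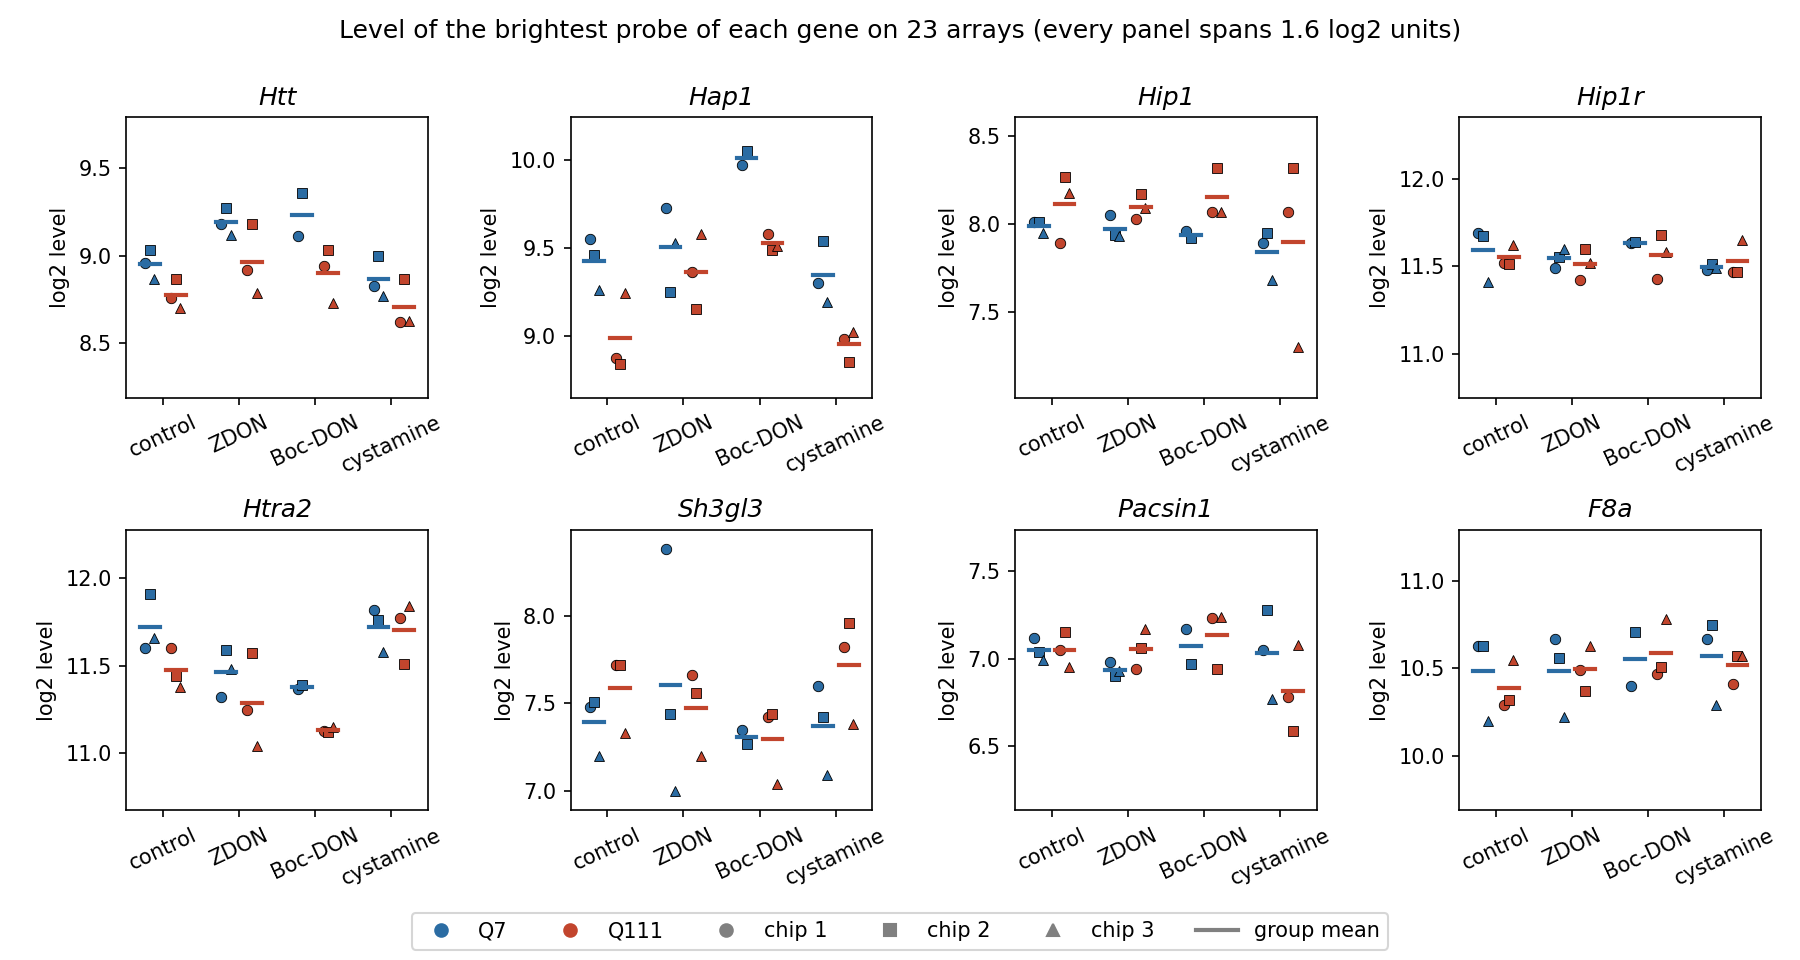
Log2 level (y axis) of the brightest probe of each of the 8 genes on every array, by arm (x axis), with Q7 in blue and Q111 in red, point shape for the chip and bars for group means; each panel has its own origin and the same span. Hap1 in Q7 with Boc-DON sits at 9.97 and 10.05, above every other array, Htt is lower in Q111 in each arm, and 1 low Hip1 value (7.30) and 1 high Sh3gl3 value (8.38) stand apart.

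None of the 11 probes passed the test within a single arm by limma, with or without the block. In untreated cells 1 of 11 had an unadjusted p under 0.05, in cells with ZDON 1, with Boc-DON 3 and with cystamine 2. Of the 15049 tested probes 1486, 1230, 1307 and 2183 had an unadjusted p under 0.05, in the same order. Over all tested probes 1.21% were called between untreated lines, 0.924% under ZDON, 0.478% under Boc-DON and 2.16% under cystamine. These counts rested on few arrays: leaving out 1 array in turn took them from 182 to as few as 79, from 139 to 55, from 72 to 8 and from 325 to 99 probes, in the same order. The differences of Htt in these arms were −0.17, −0.23, −0.34 and −0.16, and those of Hap1 were −0.44, −0.14, −0.48 and −0.39, in the same order. The largest of these, Hap1 with Boc-DON, had an adjusted p of 0.27. Chips 1 and 2 alone were a setting chosen after the data were seen. There Hap1 was called lower in untreated Q111 (−0.65, adjusted p = 0.0214) and with cystamine (−0.51, adjusted p = 0.036). Chip 3, left out in that setting, gave −0.02 untreated and −0.17 with cystamine. Whether the line difference varied with the compound was tested by the interactions described after the compounds.

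**Figure D3:**
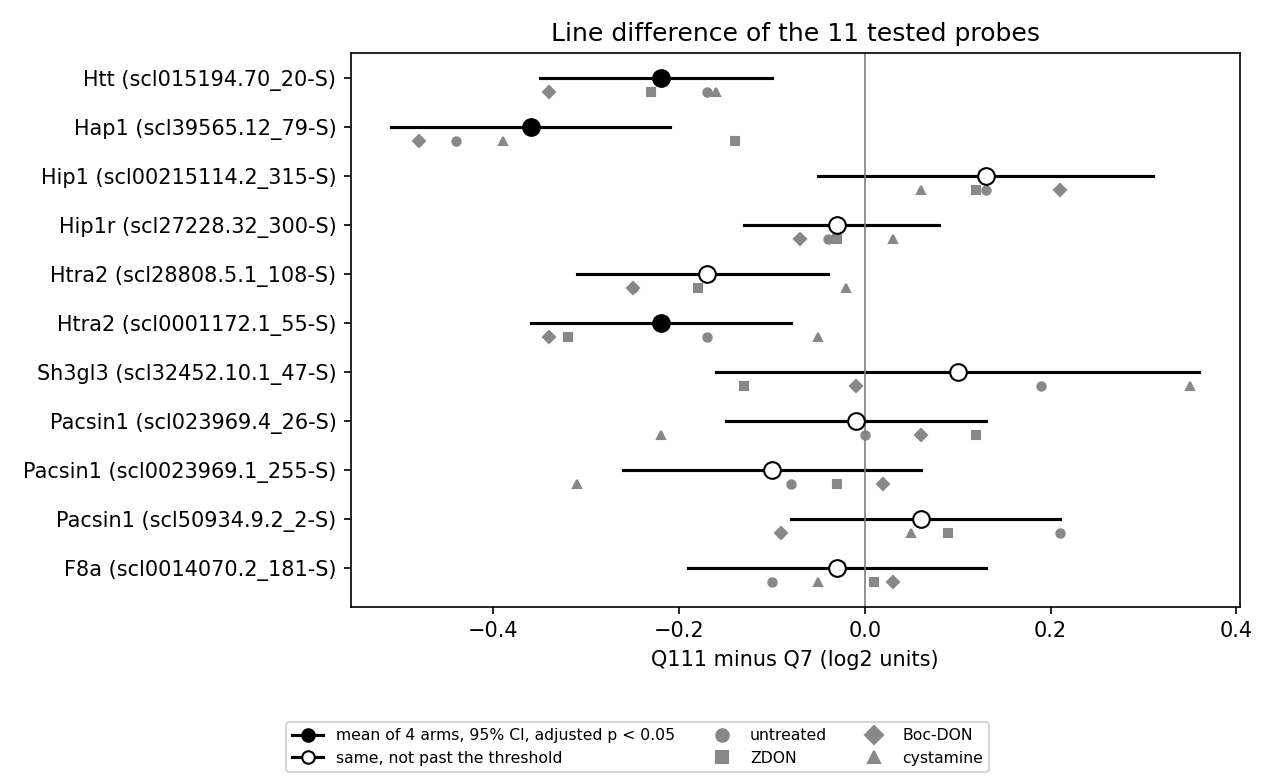
Difference between the lines, Q111 minus Q7 (x axis, log2 units), for the 11 tested probes, as the mean of the 4 arms with its 95% interval (filled where the adjusted p is under 0.05) and, in grey, each arm alone. Htt, Hap1 and the dimmer Htra2 probe are filled and lie to the left of 0, and all 4 arms of each lie on that side.

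Markers of another cell type moved with the lines. All 5 tested fibroblast markers, Col1a1, Col1a2, Col3a1, Pdgfra and Dcn, of 6 on the array, were called higher in Q111, and the sixth, Lum, lay above the median on no array. Of the 6, only Col1a1 lay above the median on every array. The summed normalized intensity of all 6, Lum included, ran from 809 to 1368 on the Q7 arrays and from 1294 to 4097 on the Q111 arrays. Of 5 tested progenitor markers 2 were also called higher in Q111, Dlx1 and Dlx2. Of 7 tested striatal markers 1 was called lower, Pde10a, and of 5 tested neuronal markers 0 were called in either direction. The part of these differences in the results for Htt, Hap1 and Htra2 was not tested, and fewer cells of a type cannot be told apart from less RNA per cell.

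**Figure D4:**
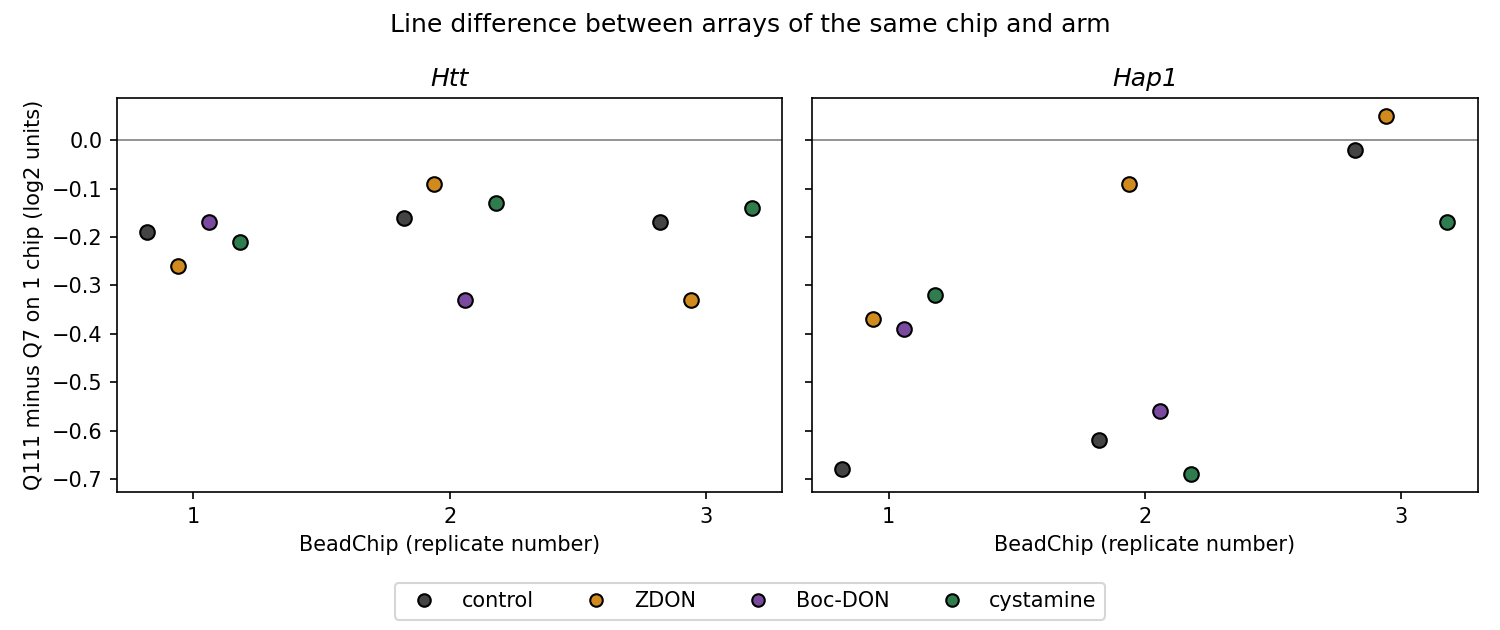
Difference between Q111 and Q7 arrays of the same arm on each BeadChip (y axis, log2 units) for Htt and for the bright probe of Hap1, with colour for the arm; chip 3 has no Boc-DON pair. All 11 Htt points lie below 0, between −0.33 and −0.09, and the Hap1 points lie between −0.69 and −0.09 on chips 1 and 2 and between −0.17 and 0.05 on chip 3.

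Each compound was set against the untreated cells of its line, and the 3 compounds share those untreated arrays. Boc-DON, averaged over both lines, raised 1 of the 11 probes, the bright probe of Hap1, against a background of 0.671% of all tested probes called in either direction. Those were 101 probes, and 9 without replicate 1 of Q7 with Boc-DON. The level of Hap1 was 9.97 and 10.05 in Q7 with Boc-DON and 9.55, 9.46 and 9.26 in untreated Q7. In Q111 it was 9.58, 9.49 and 9.51 with Boc-DON and 8.87, 8.84 and 9.24 without. Treated and untreated arrays did not overlap in either line. The mean difference was 0.57 (SE 0.10, 95% interval 0.35 to 0.78), a rise of 48.0%, with an adjusted p of 0.015 and 0.00436 with the block.

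The rise of Hap1 was 0.54 in Q111 and 0.59 in Q7, and neither value passed alone (adjusted p = 0.159 and 0.551). It was present in 5 of 5 same-chip pairs, from 0.27 to 0.71, and 9.54% of all tested probes were higher with Boc-DON in every such pair. Averaged over both lines it was 0.56 on chip 1 and 0.62 on chip 2. Chip 3 had no such average, since its Q7 array with Boc-DON had failed quality control. In Q111 chips 1, 2 and 3 gave 0.71, 0.65 and 0.27, and in Q7 chips 1 and 2 gave 0.42 and 0.59. The call ended when either of the 2 Q7 arrays with Boc-DON was left out (adjusted p up to 0.111) and under median scaling (0.47, adjusted p = 0.0999). Relative to probes of like level the difference was 0.56 under both scalings, an equality that does not bear on the lost call, as for Htt above. The dim Hap1 probes gave 0.13 (95% interval −0.07 to 0.32) and 0.06 (−0.14 to 0.27).

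Htra2 went the other way with Boc-DON but did not pass the test. Its brighter probe read 11.37 and 11.39 in Q7 with Boc-DON and 11.13, 11.12 and 11.15 in Q111 with Boc-DON, below every untreated array of the same line. The mean difference was −0.34 (95% interval −0.54 to −0.14, adjusted p = 0.116, 0.0584 with the block). The dimmer probe gave −0.23 (95% interval −0.43 to −0.02, adjusted p = 0.383). Both probes were lower in 5 of 5 same-chip pairs, as were 9.18% of all tested probes. Sh3gl3 was also lower in 5 of 5 pairs, at −0.19 with a 95% interval of −0.57 to 0.19. Htt gave 0.20 (95% interval 0.02 to 0.38, adjusted p = 0.387) and was higher in 5 of 5 pairs. F8a gave 0.14, and the values of Hip1, Hip1r and the 3 Pacsin1 probes lay between −0.18 and 0.05. By line, no member was called by limma with or without the block in Q111 or in Q7. Of all probes 0.0266% and 0.0133% were called there. An unadjusted p under 0.05 was reached by 4 and 3 of the 11, beside 1335 and 1041 of the 15049 tested probes.

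ZDON, averaged over both lines, gave no call among the 11 probes by limma with or without the block, against 0.266% of all tested probes. An unadjusted p under 0.05 was reached by 5 of the 11, among them both Htra2 probes, beside 1370 of the 15049 tested probes. Htt was higher with ZDON in 6 of 6 same-chip pairs, by 0.09 to 0.31, and 3.23% of all tested probes were higher in every such pair. In Q7 the 3 ZDON arrays, at 9.12 or above, lay over the 3 untreated arrays, at 9.03 or below, and in Q111 the ranges overlapped. The mean difference of Htt was 0.21 (95% interval 0.04 to 0.38, adjusted p = 0.416, 0.092 with the block). Hap1 gave 0.23 (95% interval 0.02 to 0.43, adjusted p = 0.468), the Htra2 probes −0.22 and −0.21, and the dimmest Pacsin1 probe −0.31 (95% interval −0.50 to −0.11, adjusted p = 0.226). That Pacsin1 probe lay above the array median on 2 arrays, and the other Pacsin1 probes gave −0.05 and −0.16. In single lines no member was called by limma with or without the block, against 0.00664% and 0% of all probes in Q111 and Q7. An unadjusted p under 0.05 was reached by 3 of 11 in Q111 and 0 in Q7, beside 1033 and 719 of all tested probes.

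Cystamine, averaged over both lines, gave no call among the 11 probes by limma with or without the block, against 1.67% of all tested probes. An unadjusted p under 0.05 was reached by 1781 of the 15049 tested probes and by 1 member. That member was the dimmer Htra2 probe, which read 11.17, 11.08 and 11.29 in Q111 with cystamine against 11.02, 10.82 and 10.88 without. In Q7 it read 11.30, 11.33 and 11.04 with cystamine against 11.22, 11.18 and 10.82 without. Its mean difference was 0.21 (95% interval 0.02 to 0.41, adjusted p = 0.368). It was higher in 6 of 6 same-chip pairs, as were F8a (0.11) and 5.44% of all tested probes. Htt was lower in 6 of 6 pairs, as were 5.89% of all tested probes, by 0.01 to 0.14 in size, with a mean of −0.08 (95% interval −0.25 to 0.09). Hap1 gave −0.05 and the brighter Htra2 probe 0.11. Within Q111 and within Q7, where 0.631% and 0.346% of all probes were called, no member was called with or without the block. There 0 members had an unadjusted p under 0.05, beside 1469 and 1112 of all tested probes.

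**Figure D5:**
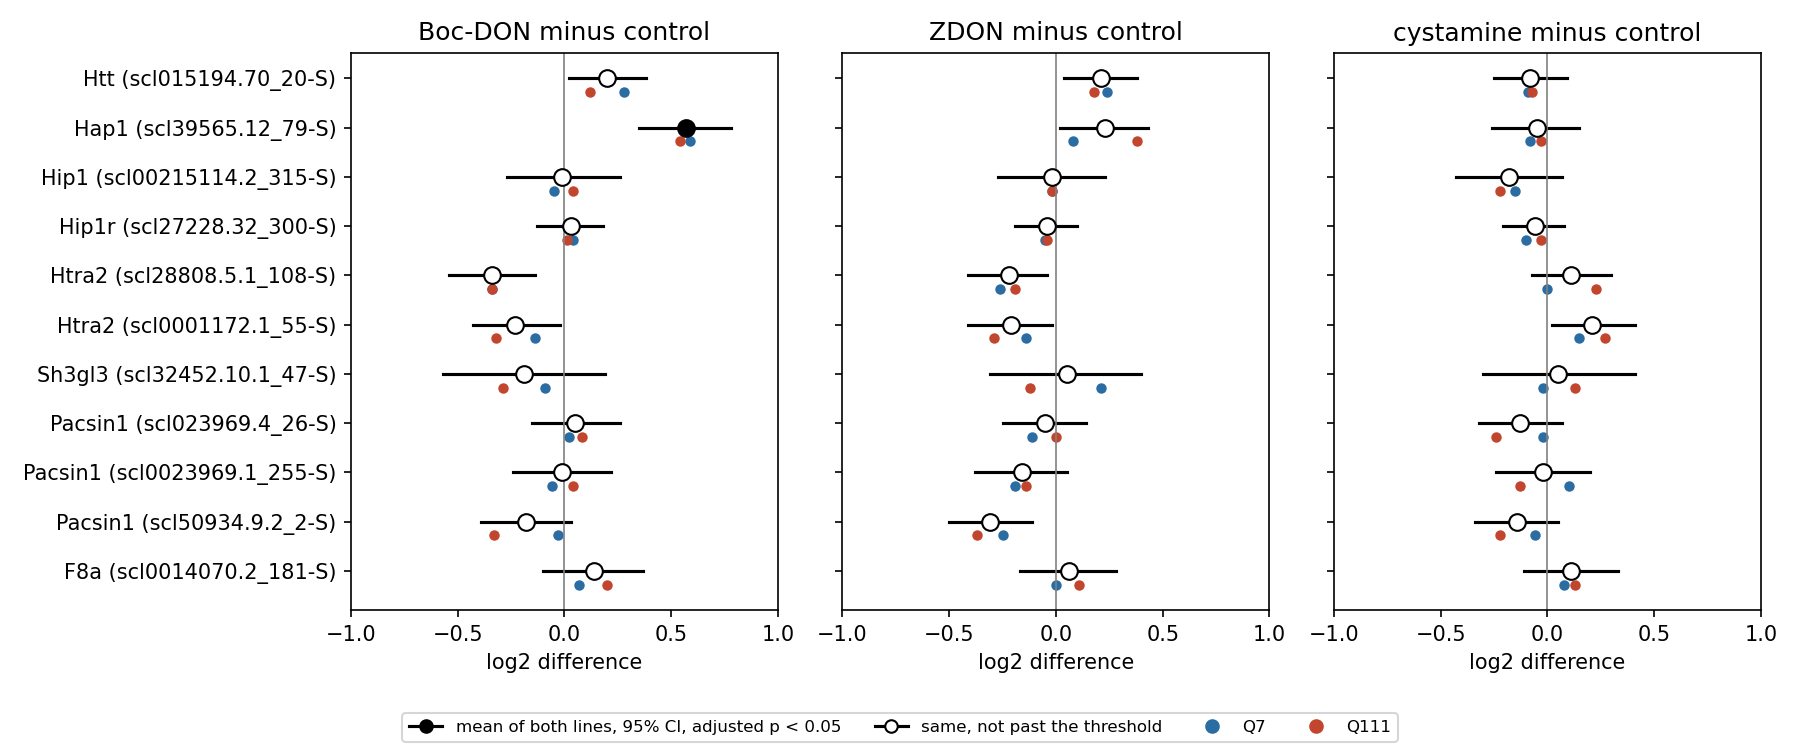
Difference from untreated cells (x axis, log2 units) for the 11 tested probes with Boc-DON, ZDON and cystamine, as the mean of both lines with its 95% interval (filled where the adjusted p is under 0.05) and each line alone in blue (Q7) and red (Q111). Hap1 with Boc-DON is the filled point at 0.57, and both Htra2 probes lie left of 0 with Boc-DON and ZDON and at or right of 0 with cystamine.

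ZDON and Boc-DON, which share DON in their names and were given at the same dose and time, were compared directly in each line, as 1 pair of compounds. No member was called in Q111 or in Q7 by limma, and with the block none was called either. Of all tested probes 0% were called in each line, with 568 and 918 at an unadjusted p under 0.05, and of the members 0 and 1. That 1 was Hap1 in Q7, which read 9.73, 9.25 and 9.53 with ZDON and 9.97 and 10.05 with Boc-DON. The difference, ZDON minus Boc-DON, was −0.51 in Q7 (95% interval −0.83 to −0.19, adjusted p = 0.771) and −0.16 in Q111 (95% interval −0.45 to 0.12). For Htt the differences were −0.04 in Q7 (95% interval −0.32 to 0.23) and 0.06 in Q111 (95% interval −0.18 to 0.31). Cystamine was given at another dose and was not set against them.

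Whether the lines responded differently was tested by an interaction for each compound. None of the 33 tests on members had an unadjusted p under 0.05, the smallest p was 0.139 and the smallest adjusted p 0.989. Of all tested probes, limma called 0% for cystamine, 0% for ZDON and 0% for Boc-DON, with 628, 344 and 538 at an unadjusted p under 0.05, and 0, 0 and 1 with the block.

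Over the 8 groups, the mean level of Htt fell in the order Q7 with Boc-DON (9.23), Q7 with ZDON (9.19), Q111 with ZDON (8.96), untreated Q7 (8.95), Q111 with Boc-DON (8.90), Q7 with cystamine (8.87), untreated Q111 (8.78) and Q111 with cystamine (8.71). The ranges of all neighbours in this order overlapped. For Hap1 the order was Q7 with Boc-DON (10.01), Q111 with Boc-DON (9.53), Q7 with ZDON (9.50), untreated Q7 (9.42), Q111 with ZDON (9.36), Q7 with cystamine (9.34), untreated Q111 (8.98) and Q111 with cystamine (8.95). Q7 with Boc-DON stood clear of all other groups, and all other neighbours overlapped. Of the variance of Htt over the arrays, 28.1% lay between the lines, 36.9% between the agents and 32.5% between the chips. For Hap1 these shares were 25.4%, 46.4% and 1.65%. For the brighter Htra2 probe the agents held 58.0%, and for Sh3gl3 the chips held 45.9%.

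As a description over the same 23 arrays, the probes whose levels ran most like those of Htt were Atg2b (Pearson r 0.804), Zfp941 (0.797) and Psmd2 (0.795). Those most like the bright Hap1 probe were Sgcb (0.855), Zw10 (0.838) and Ggct (0.835). Those most like the brighter Htra2 probe were Nop2 (0.892), Pcsk4 (0.891) and Srm (0.887). The 2 Htra2 probes correlated at 0.885 and Htt with Hap1 at 0.583, whereas the 3 Pacsin1 probes correlated with each other between −0.182 and 0.318. All these values share arrays, chips and groups.

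Genes around the members were counted from 4 lists, with 1 probe for each gene. Of 23 tested other interactors of huntingtin, 1 was higher and 0 were lower in Q111 over the 4 arms (4.35%, beside 9.48% of all probes), or 3 and 0 with the block, and their median difference was −0.00803 beside −0.00977 over all probes. The gene was Casp6, a caspase that cleaves huntingtin, at 0.26 (SE 0.05, adjusted p = 0.00257), although a second probe gave −0.02. With cystamine over both lines, 1 of these 23 genes was higher and 1 was lower (8.7%, beside 1.67% of all probes). In Q111 4.35% were called, beside 0.631% of all probes. In Q7 0% were called, beside 0.346%, and 1 gene was higher there with the block. Over both lines Sqstm1, an autophagy receptor for ubiquitinated cargo, rose by 0.60 (SE 0.11, adjusted p = 0.00256). Casp6 fell by 0.40 (SE 0.07, adjusted p = 0.00404), with −0.09 at its second probe, and in Q111 alone its difference was −0.54 (adjusted p = 0.0131; 0.292 with the arrays of the compared groups alone).

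Of 22 tested genes of the Hap1 complex and of transport along microtubules, 0 were higher and 1 was lower in Q111. This was 4.55%, beside 9.48% of all probes, with a median of −0.00526. With the block 1 was higher and 1 was lower. The lower gene was Kalrn, a guanine nucleotide exchange factor that binds Hap1, at −0.27 (SE 0.07, adjusted p = 0.00876). Its probe was dim, at a mean log2 level of 6.81, like the middle Pacsin1 probe (6.81). Of 25 tested genes of clathrin endocytosis, 1 was higher and 2 were lower in Q111 (12%), or 3 and 2 with the block, with a median of 0.0577. The transferrin receptor Tfrc differed by −0.39 (SE 0.08, adjusted p = 0.00364), the clathrin-coat protein amphiphysin, Amph, by −0.27 (SE 0.07, adjusted p = 0.0114), and Sh3gl1, the endophilin related to Sh3gl3, by 0.24 (SE 0.07, adjusted p = 0.028). The Amph probe was also dim, at a mean log2 level of 6.93, and chips 1, 2 and 3 gave −0.39, −0.25 and −0.04. With cystamine Synj2, an inositol phosphatase of endocytosis, rose by 0.43 over both lines (SE 0.09, adjusted p = 0.0127) and by 0.62 in Q111 (adjusted p = 0.0269). It was the 1 gene of 25 called in each (4%), beside 1.67% of all probes over both lines and 0.631% in Q111. With the block 1 gene was also lower over both lines. In Q7 0% of the list was called. Under median scaling the calls on Tfrc (adjusted p = 0.0653) and on Synj2 (0.0705 over both lines and 0.126 in Q111) ended. With the compared groups alone Synj2 was past the threshold in neither (0.0521 and 0.27), and Sh3gl1 was past it in 16 of 23 fits that left out 1 array and not on chips 1 and 2 alone (0.0613).

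Of 24 tested genes of mitochondrial apoptosis around Htra2, 1 was higher and 1 was lower in Q111. This was 8.33%, beside 9.48% of all probes, with a median of −0.00667. With the block 4 were higher and 1 was lower. Pink1, a kinase of mitochondrial quality control, was higher by 0.35 (SE 0.06, adjusted p = 0.000541), and a second probe gave 0.12. Under cystamine the line difference of Pink1 was 0.59 (adjusted p = 0.0093). It was the 1 gene of 24 called there (4.17%, beside 2.16% of all probes), or 1 of 2 with the block. Over the 4 arms Bcl2l1 was lower in Q111 at −0.27 (SE 0.08, adjusted p = 0.0301). With Boc-DON over both lines, Diablo rose by 0.45 (SE 0.09, adjusted p = 0.0182), while the Htra2 probes gave −0.34 and −0.23 without passing. Like Htra2, Diablo leaves mitochondria to antagonize inhibitors of apoptosis. Diablo was the 1 gene of 24 called (4.17%, beside 0.671% of all probes). With the block 1 was higher and 1 was lower. Median scaling ended the calls on Bcl2l1 (adjusted p = 0.304) and on Diablo (0.165), and with the compared groups alone the call on Pink1 under cystamine ended (0.101). Of 23 fits that left out 1 array, Bcl2l1 passed in 12 and Diablo in 20.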

How the data were processed

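The authors' deposited intensity table, made with BeadStudio per the submitters' processing notes, was corrected for background by normexp with an offset of 50, then quantile-normalized on the log2 scale. The deposited log2 table of the series matrix equalled the quantile-normalized log2 of those intensities within 5e-09, and was an alternative. The 1 further column of array values, without a sample in the labels used here, was left out; the series' design text says that 1 array of Q7 with Boc-DON had failed quality control. Genes were named from the platform annotation, which gave 19851 of 24611 probes 1 symbol and 4760 none; the probe named for 18S rRNA was left unnamed. Probes above the array median on at least 2 arrays (15049) were fitted in limma 3.58.1 under R 4.3.3. The model held 8 group means and left 15 residual degrees of freedom. It was also run on simulated data with independent noise, in which deviations shared by a chip were not simulated. P-values of 19 comparisons were each adjusted by Benjamini-Hochberg over 15049 probes, with a threshold of 0.05.

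Replicate numbers are BeadChips, per the labels: same-numbered arrays of different groups deviated from their group means with a median correlation of 0.198 (71 of 77 pairs above 0) and differently numbered ones with −0.104 (44 of 154 above 0). The number, as a shared chip, was a block in an alternative fit. The members and the 4 gene lists were chosen with earlier results of these data known. All member probes are described; list genes are named if past the test, by smallest adjusted p. Coordinates and promoters are RefSeq's for GRCm38.p6. The fits were repeated with the replicate block, without the filter, without background correction, with median scaling, on the deposited values, with the compared groups alone, with 1 probe for each gene, with each array left out in turn and, added after the data were seen, chips 1 and 2 alone. The comparison with probes of like level was also added after the data were seen.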

Additional observations from a re-analysis of the deposited data

How the results depend on the processing

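The number of arrays and the dimness of Pacsin1, of 2 Hap1 probes and of the list genes Kalrn and Amph limit these results. Median scaling took the calls among members from 3 to 0 for the line difference and from 1 to 0 for Boc-DON. It turned the line difference of Hip1r (0.081), the brightest Pacsin1 probe (0.007) and F8a (0.083), cystamine on the brighter Htra2 probe (−0.057), Sh3gl3 (−0.031) and F8a (−0.094), ZDON on Hip1 (0.005) and Boc-DON on Hip1r (−0.058), none of them past the threshold. For the line difference, median scaling moved the median of probes of like level from −0.0105 to 0.097 for Hip1r and from −0.0164 to 0.0936 for F8a. For the brightest Pacsin1 probe that median went from −0.00814 to −0.00483. The cause was not tested. With 1 array left out, calls ran from 1 to 4 for the line difference and from 0 to 1 for Boc-DON, lowest without replicate 2 of Q7 with Boc-DON in both, and without its replicate 1 in the second. Uncalled values that changed sign ran from −0.069 to 0.011 (F8a, line), −0.042 to 0.022 (brightest Pacsin1, line), −0.016 to 0.121 (F8a, ZDON), −0.075 to 0.02 (Hip1, ZDON), −0.144 to 0.2 (Sh3gl3, ZDON), −0.061 to 0.034 (Hip1, Boc-DON), −0.019 to 0.059 (Hip1r, Boc-DON), −0.102 to 0.065 (middle Pacsin1, Boc-DON), −0.104 to 0.01 (Hap1, cystamine), −0.013 to 0.138 (Sh3gl3, cystamine) and −0.114 to 0.054 (middle Pacsin1, cystamine). On chips 1 and 2 alone, chosen after the data were seen, 1 member probe was called in untreated cells (Hap1) and 3 under cystamine. Those 3 were Hap1 (−0.51) and the brighter Pacsin1 probes (−0.48 and −0.46). Over the 8 alternative settings, calls over all probes ran from 97 to 441 in untreated cells and from 86 to 1655 under cystamine. The share of all probes on chips 1 and 2 alone is not given here for these arms. On these chips the sign turned for cystamine on Hip1 (0.012). It also turned for Boc-DON on Hip1 (0.021), Hip1r (−0.007) and the brightest Pacsin1 probe (−0.016). With the replicate block the counts of called members stayed at 3 and 1, and 0 elsewhere. The block took the calls over all probes from 1426 to 2109 for the line difference, 101 to 300 for Boc-DON, 40 to 179 for ZDON and 252 to 453 for cystamine. Within the untreated, ZDON, Boc-DON and cystamine arms it took the line calls from 182, 139, 72 and 325 to 383, 290, 210 and 787. With 1 array left out, calls over all probes ran from 1022 (without replicate 1 of Q7 with Boc-DON) to 1781 for the line difference, from 9 (without the same array) to 147 for Boc-DON, from 5 (without replicate 1 of Q111 with ZDON) to 67 for ZDON and from 173 to 269 for cystamine. For cystamine in single lines they ran from 35 (without replicate 3 of untreated Q111) to 127 in Q111 and from 30 (without replicate 2 of Q7 with cystamine) to 59 in Q7. Within the arms they ran from 79 (without replicate 2 of untreated Q111) to 253 in untreated cells, 55 (without replicate 1 of Q111 with ZDON) to 161 under ZDON, 8 (without replicate 1 of Q7 with Boc-DON) to 107 under Boc-DON and 99 (without replicate 2 of Q111 with cystamine) to 926 (without its replicate 3) under cystamine. Chips 1 and 2 alone gave 2864 for the line difference over the 4 arms, 380 for Boc-DON, 281 for ZDON and 408 for cystamine. No filter gave 54 for Boc-DON and 23 for ZDON, the compared groups alone gave 60, 1 and 134 for Boc-DON, ZDON and cystamine, and median scaling gave 2 for ZDON and 763 for cystamine. Deposited values and no background correction are the same numbers, and changed no member's call. The compared groups alone is no alternative for the line difference over 4 arms, which uses all arrays.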
